A study of Mus musculus with 106 samples.

Results

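Hypothalamus and brain of wild-type mice kept at 22 °C were compared across all genes. The comparison used 5 of the 106 samples of the series, Hypothalamus_RT replicates 1, 2 and 3 and Brain_RT replicates 1 and 3, where RT stands for room temperature. They were chosen by tissue and temperature label, and Brain_RT replicate 2 was left out because it held liver RNA. RNA was sequenced from tissues of mice housed warm, at room temperature or in the cold, and each brain and hypothalamus library of the cold experiment pooled 2 mice. The mice carry the strain label C57BL/6 and were male according to the methods, the age label reads week 11, and no allele or agent is given for any group. A treatment label of 34 °C for 4 weeks stands on every sample, these 5 included, beside the RT label in their names, and the labels call these samples re-used. The brain label does not say whether the hypothalamus had been removed, and the sources used here do not say whether brain and hypothalamus came from the same mice. Hypothalamus_CE and Brain_CE, 3 libraries each from mice kept at 10 °C (CE, cold exposure), gave the same contrast with no library in common.

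The hypothalamus lies at the base of the forebrain around the third ventricle, and it controls feeding, drinking, body temperature, reproduction, sleep and the pituitary gland. Small groups of its neurons make peptide hormones, which are cut from larger precursors and released from dense core vesicles into the blood or onto other neurons. Most of the brain by mass is cerebral cortex, striatum, cerebellum and brainstem, whose projection neurons use glutamate, GABA, glycine or monoamines and are built under other transcription factors. In bulk RNA of this kind, fewer cells of a type and less RNA per cell cannot be told apart.

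The peptide genes Oxt, Avp, Hcrt and Pmch are shown by the sequence around their start, because they are among the 10 largest rises in hypothalamus. Oxt encodes oxytocin, Avp vasopressin, Hcrt the orexins that keep an animal awake, and Pmch melanin-concentrating hormone. Each sequence below is the RefSeq window of 300 bases on GRCm38.p6 from 250 bases before to 50 bases after the RefSeq start, 5′ to 3′ on the strand of the gene. Capitals mark ATAAA where its first base lies 40 to 20 bases before the start, the usual place of a TATA box, and AGGTCA on either strand, the half-site bound by many nuclear receptors. The windows are Oxt at chr2:130575919-130576218 on the plus strand, Avp at chr2:130582539-130582838 on the minus strand, Hcrt at chr11:100762882-100763181 on the minus strand and Pmch at chr10:88090822-88091121 on the plus strand.
Oxt: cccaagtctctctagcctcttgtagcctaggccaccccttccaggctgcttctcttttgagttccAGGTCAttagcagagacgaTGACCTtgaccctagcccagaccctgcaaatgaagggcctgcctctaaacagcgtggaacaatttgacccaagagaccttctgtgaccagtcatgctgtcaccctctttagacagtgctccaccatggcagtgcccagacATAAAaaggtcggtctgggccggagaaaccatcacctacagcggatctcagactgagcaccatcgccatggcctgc
Avp: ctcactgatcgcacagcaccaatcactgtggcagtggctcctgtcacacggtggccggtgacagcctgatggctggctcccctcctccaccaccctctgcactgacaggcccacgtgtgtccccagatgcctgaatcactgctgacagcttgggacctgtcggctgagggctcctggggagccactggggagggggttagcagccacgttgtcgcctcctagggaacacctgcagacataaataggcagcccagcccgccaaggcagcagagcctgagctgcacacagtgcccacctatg
Hcrt: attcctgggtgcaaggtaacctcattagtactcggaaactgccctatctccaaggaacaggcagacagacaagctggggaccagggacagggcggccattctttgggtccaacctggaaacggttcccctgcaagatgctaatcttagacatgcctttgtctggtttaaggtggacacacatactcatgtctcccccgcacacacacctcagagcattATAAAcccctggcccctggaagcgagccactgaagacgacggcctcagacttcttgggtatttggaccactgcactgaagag
Pmch: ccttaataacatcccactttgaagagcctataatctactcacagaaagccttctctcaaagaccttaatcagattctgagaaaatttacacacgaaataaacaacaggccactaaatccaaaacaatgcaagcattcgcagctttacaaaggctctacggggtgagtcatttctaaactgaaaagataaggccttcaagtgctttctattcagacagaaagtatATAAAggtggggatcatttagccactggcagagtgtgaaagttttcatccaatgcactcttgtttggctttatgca
ATAAA began 26 bases before the start in Oxt and Pmch and 32 bases before it in Hcrt. The Avp window had no capital letters, since its own copy of ATAAA lay outside the range searched. Among the hypothalamic peptide and hormone genes, 13 had such a window within 1000 bases of the annotated start, and 5 of them (38.5%) held ATAAA in that range, against 2.18% of the 10313 windows of all genes tested. AGGTCA occurred in 4 of the 13 windows (30.8%) and in 11.6% of all windows. Windows of all genes higher in hypothalamus held ATAAA in 2.65% and AGGTCA in 11.7% of cases, and windows of genes lower there in 3.53% and 12.4%. These are matches of letters and say nothing of binding.

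Depth ran from 14038161 to 21218147 counted reads per library, and log2 levels correlated at 0.990 to 0.994 among the 3 hypothalamus libraries, at 0.993 between the brain libraries and at 0.903 to 0.910 between tissues (Pearson's r across genes, which are not independent replicates). Brain_RT replicate 2 had 68007 CPM (reads of a gene scaled to a fixed library total) on 10 liver genes, against 116 to 821 in the other 11 brain and hypothalamus libraries and 98243 to 105239 in liver itself. Longer transcripts were higher in hypothalamus as a whole. With the genes ordered by summed exon length into 10 equal bins, the median log2 fold change was −0.37 in the bin of the shortest (median 1417 bases) and 0.37 in the bin of the longest (median 12621 bases). At 10 °C these medians were −0.36 and 0.31. The cause of this gradient was not tested, and calls of named genes that are lost or gained when it is removed are given beside them.

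**Figure D1:**
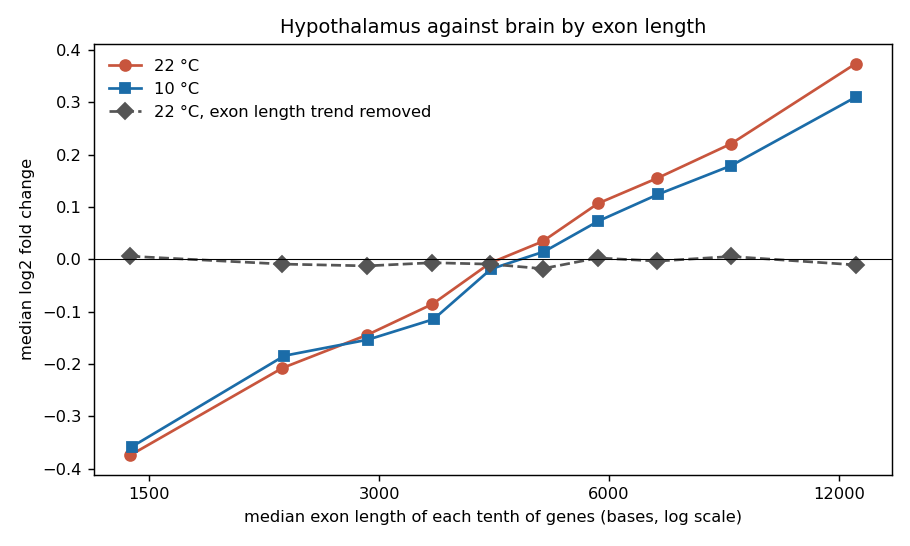
Median log2 fold change of hypothalamus against brain (y axis) in 10 equal bins of genes ordered by summed exon length (x axis, bases, log scale), at 22 °C and at 10 °C, with a dashed line for 22 °C after removal of the length trend. The solid lines climb from the bin of the shortest genes, at −0.37 and −0.36, to that of the longest, at 0.37 and 0.31, and the dashed line stays between −0.02 and 0.01.

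Of 14437 genes tested by edgeR's quasi-likelihood test, 5801 (40.2%) differed at a Benjamini-Hochberg adjusted p under 0.05 and a fold change above 1.5, the limits that define a call throughout. There were 3250 genes (22.5%) higher and 2551 genes (17.7%) lower in hypothalamus. The count of every gene list at 22 °C below is to be read against these shares. Log2 fold changes below are hypothalamus minus brain. Unless stated otherwise, levels of single genes in brain and hypothalamus are CPM scaled by the trimmed mean of M values (TMM). This scaling was made separately over the 5 libraries at 22 °C and the 6 at 10 °C. Sums over a list of genes are CPM by library size alone. Fold changes above 2 were seen in 1793 of the higher and 1105 of the lower genes, and above 16 in 58 and 56 of them. The brain libraries did not overlap the hypothalamus libraries for 11460 genes (79.4%), so a lack of overlap by itself marked most of the transcriptome. The p-values measure only the spread between these pools of mice, part of which may be technical.

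Hypothalamic peptides and hormones were mostly higher in hypothalamus. Of the 20 genes listed, 16 passed the filter on low values and 15 of these were called higher and 1 lower, where 22.5% and 17.7% of all genes tested were, with a median log2 fold change of 3.10 against 0.01 for all genes tested. Kiss1 has no row in the table, and Galp, Nms and Npw were too low to test. Rare members such as Npvf (1 read in brain, 378 in hypothalamus) passed the filter through hypothalamus, so their direction was close to fixed by passing. Hcrt (chr11:100761069-100762931) stood at 1.65 and 0.986 CPM in the brain libraries and at 169, 162 and 172 CPM in the hypothalamus libraries. The hypothalamus libraries lay close together, and the log2 fold change was 7.04 (SE 0.14, edgeR adjusted p = 9.4e-14). Pmch (chr10:88091072-88092375), whose neurons lie beside the orexin neurons in the lateral hypothalamus, was at 1.12 and 1.59 CPM in brain and at 119, 136 and 122 CPM in hypothalamus, a log2 fold change of 6.49 (SE 0.14, edgeR adjusted p = 2.6e-13).

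Oxytocin and vasopressin are made in large neurons of the paraventricular and supraoptic nuclei, and their genes lie tail to tail within a few kilobases. Oxt (chr2:130576173-130577054) stood at 2.25 and 2.90 CPM in brain and at 134, 114 and 142 CPM in hypothalamus. Avp (chr2:130580620-130582554) stood at 2.32 and 3.29 CPM in brain and at 163, 138 and 142 CPM in hypothalamus. The log2 fold changes of 5.63 (SE 0.15) for Oxt and 5.68 (SE 0.14) for Avp differed by less than their errors, and neither gene overlapped between tissues. As CPM by library size, the brain held 1.83% of the hypothalamus level for Oxt, 1.76% for Avp, 0.725% for Hcrt and 0.996% for Pmch. Libraries labelled as brain without hypothalamus at RT stand in a separately made table. Their mean level was 0.418 CPM for Oxt, 0.906 CPM for Avp, 0.129 CPM for Hcrt and 1.65 CPM for Pmch. Their age label is later than that of the brain and hypothalamus libraries compared here. By the paper's methods, mice of the 34 °C experiment and its RT controls came from another vendor. The library kit and the sequencing site differed too. These values can therefore only be set side by side with those above.

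The neurons of the arcuate nucleus that drive and curb feeding are marked by Agrp and Pomc. Agrp (chr8:105566698-105637393), the appetite-driving antagonist of melanocortin receptors, stood at 0.749 and 0.548 CPM in brain and at 3.94, 3.43 and 4.25 CPM in hypothalamus (log2 fold change 2.6, SE 0.29). Its annotated span overlaps Ripor1 and Ctcf on the other strand, so reads of these genes may be shared with it. Pomc (chr12:3954951-3960642), the precursor of the appetite-curbing melanocortins and of pituitary corticotropin, stood at 1.42 and 14.6 CPM in brain and at 35.1, 39.7 and 42.9 CPM in hypothalamus. The groups did not overlap, but the brain libraries were far apart, and the log2 fold change of 2.19 (SE 0.41) became 4.77 without Brain_RT replicate 3 and 1.42 without replicate 1. By library size alone, the pituitary markers summed to 2.99 and 22.8 CPM in brain and to 7.45, 23.98 and 15.1 CPM in hypothalamus. Brain_RT replicate 3 was thus the higher brain library both for Pomc and for this sum. The part of pituitary tissue in the Pomc values was not tested. At 10 °C, Pomc stood at 1.24 to 1.71 CPM in brain and at 30.9 to 39.5 CPM in hypothalamus, a log2 fold change of 4.54.

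Among the rarer peptides, Npvf, the precursor of a peptide that restrains gonadotropin release, had 1 read in the brain libraries together and 378 in the hypothalamus libraries, a ratio of scaled counts of 221 with a 95% counting interval of 39.5 to 8771. Trh, which drives the thyroid axis, was at 12.3 and 10.4 CPM in brain and at 113, 92.5 and 95.8 CPM in hypothalamus. Ghrh, which drives growth hormone, was at 0.0749 and 0.274 CPM against 5.59, 6.62 and 5.21 CPM. Qrfp, a peptide of neurons that can bring on torpor, was at 0 and 0.548 CPM in brain and at 3.37, 2.70 and 2.56 CPM in hypothalamus, and its log2 fold change of 3.16 moved to 2.36 without Brain_RT replicate 1 and to 8.59 without replicate 3, where brain was left at 0 reads and the fitted value is no bound. The member called lower was Crh, corticotropin-releasing hormone, at 6.81 and 7.28 CPM in brain and 2.92, 2.63 and 3.75 CPM in hypothalamus (log2 fold change −1.17, SE 0.19). Trh, Ghrh and Crh were named after their values were seen.

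Peptides made in many regions of the brain went mostly the other way. Of 14 tested members of that list, 2 were called higher, 8 lower and 4 not, with a median log2 fold change of −0.66. Cck, cholecystokinin, abundant in cortex, was at 227 and 252 CPM in brain and at 11.1, 14.4 and 13.6 CPM in hypothalamus (log2 fold change −4.19). Penk, the enkephalin precursor of striatal neurons, was at 227 and 230.2 CPM against 67.3, 71.9 and 64.9 CPM. Cort, cortistatin of cortical interneurons, was at 6.29 and 6.57 CPM against 0.0635, 0.245 and 0.411 CPM, with a log2 fold change of −4.60 that was −5.29 without Hypothalamus_RT replicate 3. The members that were called higher were Adcyap1 (1.97) and Nts (1.66), which encode PACAP and neurotensin.

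Npy is made in arcuate neurons together with Agrp, and also in interneurons of cortex and hippocampus. It stood at 55.7 and 58.3 CPM in brain and at 19.2, 16.8 and 16.9 CPM in hypothalamus, a log2 fold change of −1.70 (SE 0.09) that was −0.95 once the exon length trend had been removed. Sst, somatostatin, stood at 105 and 111 CPM against 75.8, 67.4 and 66.7 CPM. All hypothalamus libraries were below both brain libraries, but the log2 fold change of −0.63 (SE 0.08) depended on the handling of exon length: with that trend removed it was 0.000389, and with length and GC trends removed 0.03, so no direction is given for Sst. Without those corrections 8 members were lower, and with the length trend removed 6 were.

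**Figure D2:**
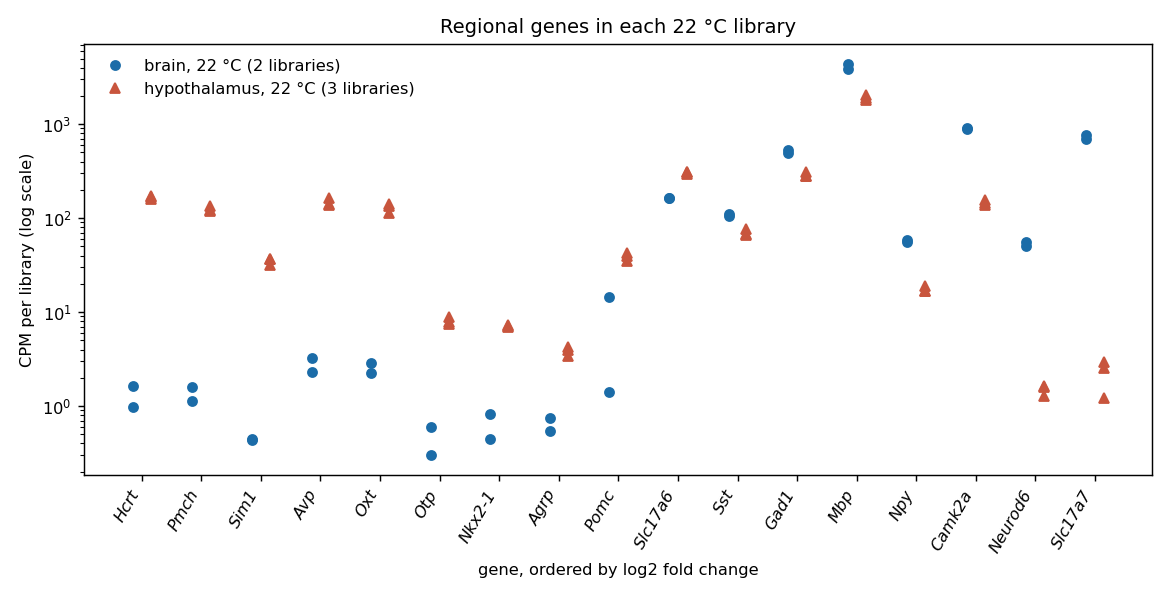
Level of named regional genes in each library (CPM, log scale, 1 point per library) for Brain_RT replicates 1 and 3 and Hypothalamus_RT replicates 1, 2 and 3. Hcrt lies at 0.986 to 1.65 CPM in brain and 162 to 172 CPM in hypothalamus, and Slc17a7 at 690 to 760 CPM in brain and 1.21 to 2.94 CPM in hypothalamus.

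Transcription factors that build or maintain the hypothalamus were higher in 22 of 25 tested members, against 22.5% of all genes tested. The median log2 fold change was 3.73, with 1 member lower and 2 not called. Sim1 (chr10:50894754-50989152), needed for the paraventricular and supraoptic nuclei that make Oxt and Avp, was at 0.449 and 0.438 CPM in brain and at 31.8, 36.8 and 36.9 CPM in hypothalamus (log2 fold change 6.29, SE 0.20, edgeR adjusted p = 5.1e-12). Otp (chr13:94875602-94885130), which acts in the same lineage, was at 0.2995 and 0.602 CPM against 7.81, 8.82 and 7.40 CPM, and its log2 fold change of 4.06 was 4.70 without Brain_RT replicate 3. Nkx2-1 (chr12:56531958-56536908), the factor of the ventral hypothalamus, was at 0.449 and 0.822 CPM against 7.11, 6.99 and 7.26 CPM (log2 fold change 3.42). None of the 3 overlapped between tissues.

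For several of these factors the brain libraries held next to no reads. Such factors passed the filter on low values through hypothalamus, so their direction was close to fixed by passing. Rax, a factor of tanycytes and of the early hypothalamus, had 0 reads in brain and 90 in hypothalamus, which is at least 17.6-fold higher against a floor of 3 reads over the brain group. Nkx2-4 had 1 read against 326, a ratio of 191 with a 95% counting interval of 34.0 to 7568. Nr5a1, which defines the ventromedial nucleus, had 3 reads against 614, a ratio of 120 (40.8 to 583), and Six6, a factor of the suprachiasmatic nucleus, had 2 against 401, a ratio of 117 (32.3 to 973). Fezf1, also of the ventromedial nucleus, was at 0.150 and 0.438 CPM against 16.7, 15.6 and 14.3 CPM (log2 fold change 5.59, and 6.62 without Brain_RT replicate 3). Intervals and floors of this kind cover counting error only, since reads without molecular identifiers are not independent molecules. The member called lower was Lhx9 (−0.74), and Nkx2-2 (0.53) and Lhx1 (0.14) were not called. Nkx2-2 was called higher with the exon length trend removed (0.67) and with scaling by library size alone (0.64).

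Cortical and hippocampal transcription factors were lower in 15 of 18 members, against 17.7% of all genes tested. The median was −2.86, with 1 member higher and 2 not called. Neurod6 (chr6:55677822-55681263), of cortical pyramidal neurons, was at 56.3 and 50.2 CPM in brain and at 1.65, 1.29 and 1.60 CPM in hypothalamus (log2 fold change −5.12, SE 0.13). Emx1, which marks the dorsal telencephalon, was at 9.96 and 13.5 CPM against 0.254, 0.0613 and 0.183 CPM. The member called higher was Rorb (0.67), a factor of a layer of sensory cortex that is also found in thalamus and in the clock nucleus, and it was not called with the exon length trend removed (0.37).

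Receptors through which hypothalamic neurons read hormones and peptides were higher in 23 of 30 members, against 22.5% of all genes tested. The median was 1.17, with 1 member lower and 6 not called. Irs4, an insulin receptor substrate, was at 6.44 and 5.26 CPM in brain and at 157, 150.3 and 145 CPM in hypothalamus (log2 fold change 4.70, SE 0.11). Calcr, the calcitonin and amylin receptor, was at 1.95 and 2.19 CPM against 40.3, 39.5 and 34.8 CPM. Ghsr, the ghrelin receptor, was at 0.824 and 0.657 CPM against 8.26, 9.25 and 9.64 CPM.

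The receptor differences were graded rather than uniform. Gpr50, a melatonin receptor relative found in tanycytes, had a log2 fold change of 3.98 and Brs3, a receptor of energy balance neurons, of 3.46, while Mc3r (2.98), Esr1 (1.95) and Mc4r (0.70) followed at smaller sizes. Lepr, the leptin receptor, was at 7.94 and 8.16 CPM in brain and at 9.91, 17.8 and 14.8 CPM in hypothalamus, a log2 fold change of 0.81 with an SE of 0.20. Hypothalamus_RT replicate 1 was the closest to brain. The member called lower was Crhr1 (−1.43), the main corticotropin-releasing hormone receptor, and Oxtr (0.50), Insr (0.47), Kiss1r (0.14), Npy5r (−0.03), Npy1r (−0.22) and Mchr1 (−0.58) were not called.

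Of 6 tested genes of temperature and fever neurons, 5 were called higher and 1 was not, where 22.5% of all genes tested were higher. They were Brs3, Qrfp, Adcyap1, Lepr and Ptger3 (0.83), the receptor through which prostaglandin E2 causes fever, with Trpm2 (0.28), a heat-sensing channel, not called. Opn5, a light sensor of preoptic neurons, was too low to test. Of 7 tested genes of the suprachiasmatic clock, 4 were higher and 1 lower: Six6, Prokr2 (1.34), Syt10 (0.86) and Vipr2 (0.65) were higher, and Vip (−1.19) was lower, at 25.2 and 25.9 CPM in brain and 11.3, 11.9 and 10.5 CPM in hypothalamus. Vip is also made by many cortical interneurons.

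**Figure D3:**
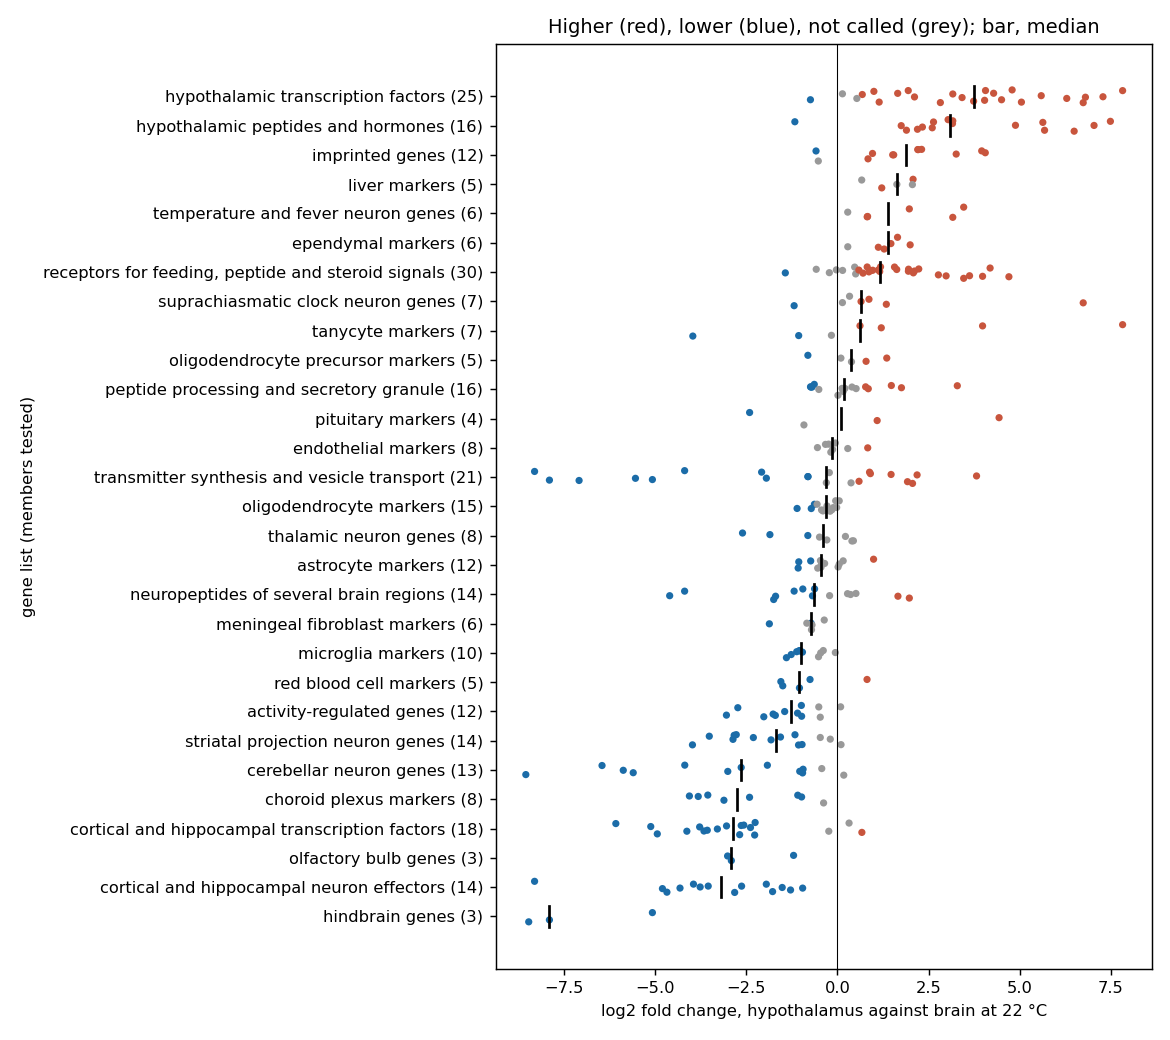
Log2 fold change of hypothalamus against brain at 22 °C (x axis) for each tested member of the gene lists (rows, 1 point per gene, called higher in red, called lower in blue, not called in grey, with a bar at the median of each list). Hypothalamic transcription factors have a median of 3.73 and hypothalamic peptides of 3.10, while cortical and hippocampal effectors have a median of −3.18.

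Transmitter genes split by region: of 21 tested, 8 were higher, 10 lower and 3 not called. Slc17a7 (chr7:45163949-45176142), the vesicular glutamate transporter of cortical, hippocampal and cerebellar granule neurons, was at 689.6 and 760.1 CPM in brain and at 1.21, 2.94 and 2.56 CPM in hypothalamus (log2 fold change −8.31, SE 0.14, edgeR adjusted p = 6.1e-14). Slc17a6 (chr7:51622006-51671119), the transporter of subcortical glutamate neurons, was at 162 and 163 CPM against 309, 297 and 307 CPM (log2 fold change 0.90, SE 0.06). Per kilobase of exon the brain therefore held 134 CPM of Slc17a7 and 30.2 CPM of Slc17a6, and the hypothalamus 0.415 CPM and 56.4 CPM.

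The enzymes that make GABA moved in opposite directions. Gad1 (chr2:70553072-70602014) was at 525 and 493 CPM in brain and at 283, 282 and 306 CPM in hypothalamus (log2 fold change −0.81, SE 0.07). Gad2 was at 180.2 and 163 CPM against 302, 318 and 326 CPM (log2 fold change 0.88, SE 0.07), and the vesicular GABA transporter Slc32a1 (−0.31) was not called. Neither enzyme overlapped between tissues. Per kilobase of exon, Gad1 fell from 66.6 to 38.0 CPM and Gad2 rose from 29.2 to 53.7 CPM between brain and hypothalamus.

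Monoamine genes differed by transmitter. Hdc, which makes histamine in the tuberomammillary nucleus of the hypothalamus, was at 4.04 and 4.44 CPM in brain and at 68.4, 59.1 and 53.2 CPM in hypothalamus (log2 fold change 3.82). The noradrenaline transporter Slc6a2 of the locus coeruleus had 111 reads in brain and 1 in hypothalamus, a ratio of 189 toward brain (33.3 to 7549), and the serotonin genes Slc6a4 (−5.54) and Tph2 (−5.08) of the raphe were lower in hypothalamus. Dopamine genes were higher and uneven: Slc6a3, the dopamine transporter, was at 24.1 and 19.3 CPM in brain and at 74.7, 54.5 and 161.6 CPM in hypothalamus, and Th, tyrosine hydroxylase, at 26.7 and 23.9 CPM against 59.3, 50.6 and 98.0 CPM. Hypothalamus_RT replicate 3 was the highest in both. Hdc, Gad2, Slc6a3 and Th were named after their values were seen.

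Effector genes of cortical and hippocampal neurons were lower in all 14 tested members (median −3.18), against 17.7% of all genes tested. Camk2a, the kinase of excitatory synapses, was at 916 and 894 CPM in brain and at 144, 139 and 155 CPM in hypothalamus (log2 fold change −2.63, SE 0.07). Ddn, dendrin, was at 833 and 943 CPM against 43.0, 50.9 and 39.7 CPM. Itpka, an inositol trisphosphate kinase of dendritic spines, was at 155 and 161 CPM against 7.05, 5.76 and 5.80 CPM, and Kcnh3, a potassium channel of the forebrain, had a log2 fold change of −4.80.

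Striatal projection neuron genes were lower in 11 of 14 members, against 17.7% of all genes tested, and not called in 3 (median −1.69). Adora2a, the adenosine receptor of the indirect pathway, was at 33.5 and 39.7 CPM in brain and at 2.10, 3.37 and 1.64 CPM in hypothalamus. Ppp1r1b, which encodes DARPP-32, was at 166 and 186 CPM against 12.96, 18.7 and 14.5 CPM (log2 fold change −3.52). Hypothalamus_RT replicate 2 was the highest of its group in both.

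Cerebellar neuron genes were lower in 11 of 13 members, against 17.7% of all genes tested, and not called in 2 (median −2.64). Gabra6 (chr11:42306437-42321072), the GABA receptor subunit of granule neurons, was at 60.1 and 56.8 CPM in brain and at 0.254, 0.123 and 0.0914 CPM in hypothalamus (log2 fold change −8.55, SE 0.19, edgeR adjusted p = 2.6e-13). Cbln3, a granule neuron cerebellin, was at 76.2 and 85.3 CPM against 1.08, 1.16 and 0.594 CPM, and Pcp2, of Purkinje neurons, at 23.8 and 29.1 CPM against 0.508, 0.674 and 0.457 CPM. Fat2, a cadherin of granule neurons, was at 104 and 105 CPM against 0.826, 3.43 and 1.19 CPM, and its log2 fold change of −5.88 was −6.64 without Hypothalamus_RT replicate 2.

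Hindbrain genes that could be tested were lower in hypothalamus. Only 3 of 13 passed the filter, and all 3 were called lower: Slc6a5, the glycine transporter, at 54.1 and 55.8 CPM in brain and 0.0635, 0.245 and 0.320 CPM in hypothalamus, with Tph2 and Hoxb3. The filter is on the average level, and these genes passed it through their reads in brain. Their direction was therefore close to fixed by passing. Fev, with 5 reads in brain and 4 in hypothalamus, was among those too low to test. The Hox genes set position along the hindbrain and spinal cord. Hoxb3 had 82 reads in brain and 0 in hypothalamus, at least 46.6-fold lower there, and Hoxb5 had 62 against 0, at least 35.3-fold lower. Hoxb2 (at least 30.7-fold), Hoxc4 (at least 26.7-fold) and Hoxa3 (at least 10.8-fold) were also at 0 in every hypothalamus library. The brain libraries thus held RNA of the hindbrain as well as of the forebrain.

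Thalamic genes did not stand apart as a group, with 3 of 8 members lower, 5 not called and a median of −0.39. Among all genes tested, 17.7% were lower. Prkcd, a kinase of thalamic relay neurons, was lower (−2.61), and so was Gbx2 (−1.85). Tcf7l2 (−0.81) lost its call without Brain_RT replicate 3, at a log2 fold change of −0.54 and an edgeR adjusted p of 0.0748. With the length and GC trends removed 5 members were lower and 1 higher. In the olfactory bulb list 3 of 4 members were tested and all 3 were lower, Cdhr1 (−3.02), Eomes (−2.91) and Doc2g (−1.20).

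Among the 10 largest falls over all genes with at least 5 CPM in brain, several were in no list. Sycp1, known as a protein of the meiotic chromosome axis, had 173 reads in brain and 1 in hypothalamus, a ratio of 295 toward brain (52.3 to 11728). Rtn4rl2, a Nogo receptor relative, was at 10.4 and 12.0 CPM against 0, 0.306 and 0 CPM, so that its hypothalamic reads came from replicate 2, and its log2 fold change of −6.81 was −10.61 without that library, when hypothalamus was left at 0 reads and the fitted value is no bound. Crtam (−6.21) and Mybpc1 (−5.78), known as an adhesion molecule of immune cells and a myosin-binding protein of slow muscle, were at 9.51 to 18.6 CPM in brain and at 0.0635 to 0.445 CPM in hypothalamus. All 10 genes with the largest rise, namely Npvf, Nkx2-4, Hcrt, Nr5a1, Six6, Pmch, Sim1, Avp, Oxt and Fezf1, were members of the peptide or transcription factor lists. Those lists were chosen with earlier results of these data known, so this membership is a description only.

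Genes of peptide processing and the secretory granule did not move together, with 5 of 16 higher, 4 lower and 7 not called (median 0.18). These counts were not far from the shares of all genes tested, 22.5% higher and 17.7% lower. Baiap3, which acts in dense core vesicle release, was at 69.3 and 77.9 CPM in brain and at 788, 657 and 714 CPM in hypothalamus (log2 fold change 3.29). Scg2, secretogranin II, was at 499 and 430.0 CPM against 1329, 1300.2 and 1249 CPM. The prohormone enzymes Pcsk2 (−0.73) and Cpe (−0.64) were lower, and Pcsk1 (0.51) and Chga (0.20) were not called. With the exon length trend removed 4 members were higher and 2 lower, and Cpe (−0.48) was not called.

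Imprinted genes, of which only the copy from the mother or from the father is read, were higher in 10 of 12 tested members. The median was 1.87, with 1 member lower and 1 not called, where 22.5% of all genes tested were higher. Zim1 was at 6.74 and 6.13 CPM in brain and at 116, 109.9 and 94.1 CPM in hypothalamus (log2 fold change 4.06). Magel2, a gene of the Prader-Willi region, was at 8.01 and 9.31 CPM against 86.5, 77.9 and 86.0 CPM (log2 fold change 3.26). Peg3 was at 619 and 524 CPM against 2708, 2648 and 2607 CPM.

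The other imprinted genes were spread more widely. Asb4 (3.96) and Peg10 (2.31) were high, while Ndn, another gene of the Prader-Willi region, had a log2 fold change of 0.84. Cdkn1c (−0.59) was called lower, just past the fold limit, and lost that call with the exon length trend removed (−0.36) and with scaling by library size alone (−0.47). Snrpn (−0.53) was not called. Meg3 has no row in the table.

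Activity-regulated genes, which neurons read within minutes of firing, were lower in 9 of 12 members, against 17.7% of all genes tested. The median was −1.27, with no member higher and 3 not called. Arc (chr15:74669083-74672570), which acts in synaptic plasticity, was at 175 and 149 CPM in brain and at 23.2, 24.4 and 25.1 CPM in hypothalamus (log2 fold change −2.74, SE 0.08). Egr1 was at 61.0 and 41.2 CPM against 11.4, 13.2 and 12.8 CPM, and Homer1 at 281 and 201 CPM against 64.2, 75.6 and 72.1 CPM. Fos was at 24.7 and 14.7 CPM in brain and at 21.5, 25.1 and 15.8 CPM in hypothalamus, with overlapping groups and a log2 fold change of 0.09 (SE 0.20).

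At 10 °C all 12 activity-regulated genes were called lower, against 18% of the 14386 genes tested there, and the list's median was −2.03. Arc was at 348, 412 and 367 CPM in the brain libraries at 10 °C and at 26.5, 25.98 and 28.9 CPM in the hypothalamus libraries. Every brain library at 10 °C was above both at 22 °C, while the hypothalamus libraries of both temperatures lay between 23.2 and 28.9 CPM. Each temperature was scaled on its own, so these levels can only be set side by side. The test of the difference itself, the interaction of tissue and temperature, called Arc alone among 14421 genes (0.00693%): the log2 fold change was lower at 10 °C by −1.05 (SE 0.12, edgeR adjusted p = 0.00117). Dusp1 (−0.86, edgeR adjusted p = 0.239) and Nr4a1 (−1.09, edgeR adjusted p = 0.540), also activity-regulated, were not called, and 682 genes (4.73%) had an unadjusted p under 0.05. DESeq2 called 2 genes lower in this test, a fit with the replicate number as a block called 11 higher and 2 lower, and with Brain_RT replicate 2 added none was called lower.

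**Figure D4:**
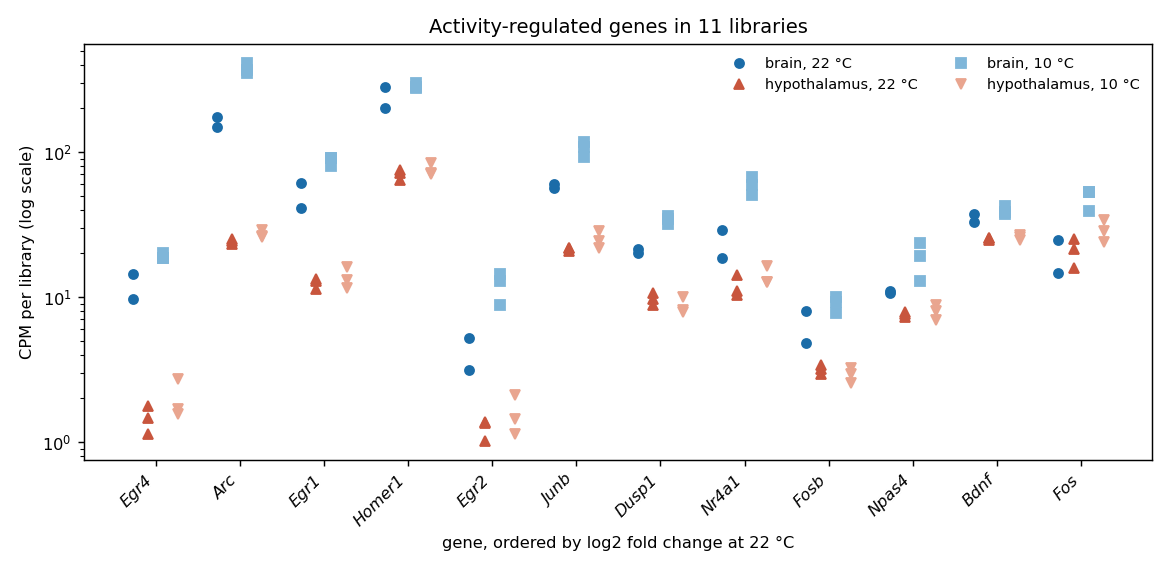
Level of activity-regulated genes in each library (CPM, log scale, 1 point per library) in brain and hypothalamus at 22 °C and at 10 °C. Each temperature was scaled on its own. Arc lies at 149 to 175 CPM in brain at 22 °C, at 348 to 412 CPM in brain at 10 °C and at 23.2 to 28.9 CPM in all 6 hypothalamus libraries.

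At 10 °C the contrast was made in libraries that were not shared. There 5694 of 14386 genes (39.6%) were called, 3106 higher (21.6%) and 2588 lower. Of 5715 genes called at 22 °C and tested at both temperatures, 5009 (87.6%) were called in the same direction at 10 °C, 2 in the opposite direction, and 5704 had the same sign. These were 2792 of 3169 higher and 2217 of 2546 lower genes, and they made up 89.0% of the 5625 genes called at 10 °C. The log2 fold changes of both temperatures correlated at 0.970 (Pearson's r across genes, which are not independent). Peptides were higher in 14 of 15 tested members at 10 °C and hypothalamic transcription factors in 21 of 25. The liver markers were also higher there in all 8 tested members (median 2.39), against 2 of 5 at 22 °C. Alb, albumin, was at 2.38, 4.22 and 7.68 CPM in brain and at 8.73, 3.40 and 115.5 CPM in hypothalamus at 10 °C, so that Hypothalamus_CE replicate 3 was the highest. Without that library the contrast at 10 °C called 3040 genes higher and 2584 lower.

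**Figure D5:**
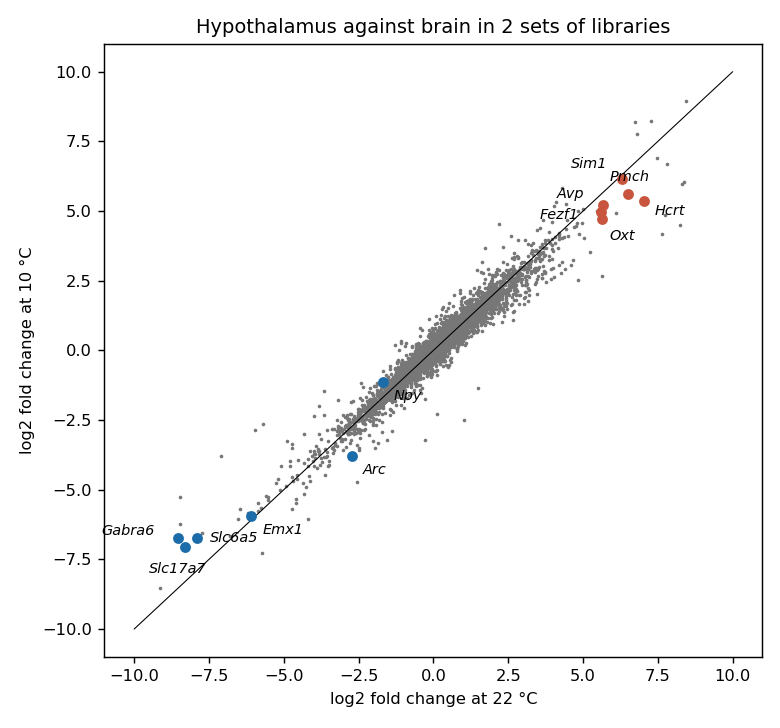
Log2 fold change of hypothalamus against brain at 22 °C (x axis) and at 10 °C (y axis), 1 point per gene tested at both temperatures. The points follow the diagonal with a Pearson's r of 0.970, and Arc lies below it with −2.74 at 22 °C and −3.79 at 10 °C.

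Few oligodendrocyte and astrocyte markers were higher, and their shares called lower were near the 17.7% of all genes tested. Of 15 oligodendrocyte markers, 3 were lower and 12 were not called (median −0.31), and the summed level was 8464 and 9050 CPM in brain against 6031 to 6485 CPM in hypothalamus. Mbp, a main protein of myelin, was at 3868 and 4414 CPM in brain and at 1912, 1828 and 2022 CPM in hypothalamus (log2 fold change −1.11, SE 0.07).

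Of 12 astrocyte markers 1 was higher, 3 lower and 8 not called, and with the exon length trend removed 5 were lower. The higher one was Agt, angiotensinogen, at 121 and 129 CPM in brain and at 263, 232 and 249.7 CPM in hypothalamus, and S100b (−1.08), Aldoc (−1.06) and Aqp4 (−0.74) were lower. Microglia markers were lower in 6 of 10 members and higher in none (median −0.996): C1qa, a complement gene, was at 69.9 and 78.9 CPM against 30.9, 31.1 and 30.7 CPM, and Tmem119 at 37.1 and 36.9 CPM against 14.6, 11.3 and 15.9 CPM. Cx3cr1 (−0.06), Aif1 (−0.39), Siglech (−0.46) and P2ry12 (−0.52), which mark the same cells, were not called. Among 5 markers of oligodendrocyte precursors, Cspg4 (1.35) and Gpr17 (0.78) were higher and Bcas1 (−0.81) lower, and of 8 endothelial markers only Flt1 (0.83) was called, a call lost with the exon length trend removed (0.45).

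The cells that line the ventricles fell into different groups. Ependymal markers were higher in 5 of 6 members (median 1.37), with Ccdc153 (1.99), Dynlrb2 (1.65), Cfap126 (1.47), Tmem212 (1.28) and Rarres2 (1.12) higher and Foxj1 (0.28) not called, and they summed to 30.1 and 28.4 CPM in brain against 56.4 to 62.3 CPM in hypothalamus. The value of Tmem212 was 2.01 without Brain_RT replicate 1 and 0.71 without replicate 3. Tanycyte markers, of the floor of the third ventricle, were higher in 4 of 7 members, Rax, Gpr50, Col23a1 (1.20) and Nes (0.62, but 0.48 and not called with the exon length trend removed), and lower in 2, Vim (−1.06) and Crym (−3.97). Crym was at 80.7 and 80.6 CPM in brain and at 5.21, 5.88 and 4.48 CPM in hypothalamus, and it is also made in cortical and striatal neurons. Choroid plexus markers were lower in 7 of 8 members (median −2.76) and summed to 1284 and 856 CPM against 82.3 to 147 CPM, led by Ttr, transthyretin, at 1234 and 821 CPM against 101, 37.4 and 47.4 CPM.

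Markers of tissue around the brain varied by library. Meningeal fibroblast markers summed to 249 and 208 CPM in brain and to 80.2, 240.7 and 99.9 CPM in hypothalamus, so that Hypothalamus_RT replicate 2 reached the brain level, and 2 of 6 members were lower, Col1a1 (−1.87) and Col1a2 (−0.73), the latter no longer called when either brain library was left out (−0.64 without replicate 1, −0.83 without replicate 3) or Hypothalamus_RT replicate 1 or 3 (−0.52 in both). Of the pituitary markers 4 of 10 were tested: Cga (4.43) and Tshb (1.09) were higher, Gh (−2.41) was lower and Prl (−0.92) was not called, and the Gh value was 1.22 without Brain_RT replicate 3, so it rests on that library, and it was not called with the length and GC trends removed (−1.79). The value of Cga was 9.15 without Brain_RT replicate 3 (no bound, since brain was left at 0 reads), 3.65 without replicate 1 and 3.27 without Hypothalamus_RT replicate 2. Haemoglobin genes were lower (Hba-a2 −1.55, Hba-a1 −1.50, Hbb-bt −1.04, Hbb-bs −0.75), with reads that near-identical copies may share, while Alas2 (0.81) was higher. With the exon length trend removed, neither Hbb-bt (−0.41) nor Hbb-bs (−0.16) was called. Of the 10 liver markers 5 were tested and 2 were higher, Itih3 (2.07), which is also a gene of the brain, and Cps1 (1.21), whose value was 0.52 and no longer called without Hypothalamus_RT replicate 3, 1.59 without Brain_RT replicate 3 and 0.96 without replicate 1, neither of them called. With the exon length trend removed Cps1 was not called either (1.13, edgeR adjusted p = 0.0546).

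Set among the 8 tissues of the same table at 22 °C, 1204 of the 3250 genes higher in hypothalamus (37.0%) had their highest mean there, against 15.1% of all genes tested. Of the 2551 lower genes, 1160 (45.5%) had their highest mean in brain, against 18.3% of all genes tested. These shares follow in part from the direction of the call itself and are given as a description. Some regional genes were not limited to the brain: the mean of Nr5a1 was 17.3 CPM in spleen, that of Sim1 was 6.15 CPM in visceral fat, and that of Npy was 7.99 CPM in visceral fat.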

How the data were processed

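RNA sequencing libraries of hypothalamus and brain were taken from a table of raw counts for 8 tissues, which the authors deposited as whole-number counts of reads per Ensembl gene. The submitters' processing notes list STAR 2.5.3a, Picard 1.141 and HTSeq 0.6p1 with mm10. Symbols and coordinates came from GENCODE M21 on GRCm38 (21583 of 21647 identifiers matched). Groups followed tissue and temperature labels. Counts were fitted in R 4.3.3 with edgeR 4.0.16 (TMM, quasi-likelihood F-test, two-sided, Benjamini-Hochberg adjustment) for genes with an average log2 CPM above 0, and a call needed an adjusted p under 0.05 and a fold change above 1.5. The fits were 5 libraries at 22 °C, 6 at 10 °C, and all 11 for the interaction of tissue and temperature. Depth was 14038161 to 21218147 reads at 22 °C and 13525354 to 22049093 at 10 °C, which leaves genes with few reads imprecise. The script was tested on simulated counts. Alternatives were the exact test, DESeq2 1.42.0, other scalings and filters, all 3 brain libraries, a replicate block, each library left out, and, chosen after seeing the data, removal of trends with exon length and GC by a lowess curve of span 0.3. Genes named were up to 4 called members of each list with the largest fold change, the 10 largest rises and falls with at least 5 CPM in the higher group and no overlap, called interaction genes, and Agrp, Pomc, Oxt, Avp, Hcrt, Pmch, Npy, Sst, Sim1, Otp, Nkx2-1, Neurod6, Slc17a7, Slc17a6, Gad1, Camk2a and Mbp, plus members named to account for a list, and some genes are not reported here. The members of the comparison and the gene lists were chosen with earlier results of these data known. Columns of the authors' own comparisons and tables of other tissues and experiments were not used here, apart from mean levels at 22 °C.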

Additional observations from a re-analysis of the deposited data

Results flagged for a closer look

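The brain-hypothalamus difference of Arc was not the same at both temperatures, by the test of the interaction itself: the log2 fold change at 10 °C minus that at 22 °C was −1.05 (SE 0.12, edgeR adjusted p = 0.00117). Arc was higher in brain at 10 °C than at 22 °C in every library, with 348 to 412 CPM against 149 to 175 CPM, and stood at 23.2 to 28.9 CPM in all 6 hypothalamus libraries. These levels were scaled separately at each temperature.

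The brain library left out of the comparison, Brain_RT replicate 2, had 68007 CPM on 10 liver genes, above the 116 to 821 CPM of the other 11 brain and hypothalamus libraries.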

How the results depend on the processing

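The counts of genes higher and lower at 22 °C stayed within 1.5 times of 3250 and 2551 in all alternatives run except the fold limit: with none there were 5199 and 4911, and above 2-fold 1793 and 1105. Scaling by library size alone moved the median log2 fold change of all genes at 22 °C from 0.014 to 0.128. It gave 3815 and 1992 at 22 °C, 65.7% higher against 56.0%, and 3971 and 1845 at 10 °C, 68.3% against 54.5%. All 3 brain libraries gave 2240 and 1936, of which 2144 and 1731 were shared with the reported calls, and removing the exon length trend 2894 and 2421, of which 2664 and 2024 were. For the interaction, where 0 genes were higher and 1 lower, testing genes with at least 1 count gave 1 and 3, DESeq2 gave 2 lower, adding Brain_RT replicate 2 gave 0 lower, and leaving out single libraries gave 0 to 2 higher and 1 to 1 lower. Replicate numbers paired the tissues by a number only: same-numbered libraries correlated at −0.023 and 0.104 at 22 °C and at 0.036, 0.018 and 0.029 at 10 °C. Every library at 10 °C correlated best with its own number, though these values were small. At 22 °C brain replicate 1 correlated best with hypothalamus replicate 2 (0.096). Whether equal numbers mean the same mice was not tested. With the replicate block the calls were 3193 and 2641 at 22 °C, 3106 and 2589 at 10 °C, and 11 and 2 for the interaction. Signs turned for Alas2 (−1.05) and Cps1 (−10.51) with all 3 brain libraries, for Sst at 0.000389 (length trend removed) and 0.0307 (length and GC), and for Gh, which ran from −3.98 to 1.22 when single libraries were left out. The cause was not tested. Of 114 named genes, 17 more lost their call with all 3 brain libraries and 3 with DESeq2. Without a brain library, the lone sample left was assumed to vary like the hypothalamus samples. Genes with few reads in a group depend on depth.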

Other observations

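Of 12 tested genes of midbrain dopamine neurons, chosen after their values were seen, 9 were called higher in hypothalamus, 1 lower and 2 not, where 22.5% of all genes tested were higher. Slc6a3, the dopamine transporter, had a log2 fold change of 2.18 (SE 0.35), Slc18a2, the vesicular monoamine transporter, of 2.06 (SE 0.17), Chrna6, a nicotinic receptor subunit of dopamine terminals, of 2.21 (SE 0.30) and Th of 1.47 (SE 0.21). Chrna6 was at 4.12 and 3.51 CPM in brain and at 14.4, 11.4 and 26.04 CPM in hypothalamus, and Slc18a2 at 22.8 and 17.7 CPM against 70.8, 71.4 and 107.6 CPM. Hypothalamus_RT replicate 3 was the highest library for each of these genes, as it was for Ddc and Ret. The factors Foxa1 (4.66), Lmx1a (2.72) and Lmx1b (1.85), which specify these neurons and also act in the caudal hypothalamus, were called higher, while En1 (−0.11) and Nr4a2 (−0.45) were not called, Aldh1a1 was lower (−0.84), and Pitx3 and Foxa2 were too low to test. The part of midbrain tissue in these values was not tested.

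Genes whose names begin with Dnah, the heavy chains of ciliary dynein, were called higher in hypothalamus in all 15 tested members, with a median log2 fold change of 2.01. Of all genes tested, 22.5% were called higher at 22 °C and 21.6% at 10 °C. The Dnah genes are long (median 14968 bases), and in the bin of the longest genes 529 of 1443 were called higher at 22 °C. With the exon length trend removed 13 of the Dnah genes were higher (median 1.66), and at 10 °C 14 of 15 were. Genes named Cfap, for cilia and flagella associated proteins, were higher in 24 and lower in 1 of 28 tested members (median 1.25), and with the length trend removed higher in 22 and lower in 0 (median 1.36), and at 10 °C 18 of 24 tested were higher. Both families were chosen after their values were seen. Motile cilia are known from ependymal cells, of whose 6 tested markers 5 were higher and Foxj1 (0.28) was not called. The part of ependymal cells in the Dnah and Cfap values was not tested.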
